A study of Mus musculus with 24 samples.

Results

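The tricarboxylic acid (TCA) cycle enzymes described here are encoded by 9 genes, Cs, Idh2, Idh3a, Idh3b, Idh3g, Ogdh, Dlst, Fh1 and Mdh2. They were taken by gene name from a table of RNA-seq read counts for 14106 genes, and all 9 were among the 12024 genes tested. The study asked how Spt5, a factor that travels with RNA polymerase II through pausing and elongation, shapes transcription in mouse B cells. Of its 24 samples, the 6 RNA-seq libraries were used and the 18 samples of other assays were not analysed here. The 3 Spt5-depleted libraries came from primary splenic B cells of genotype Supt5hFl/- Rosa26ERT2-cre/+, which have 1 floxed copy of Supt5h, the gene for Spt5, and 1 null copy. The 3 control libraries, called WT, came from Rosa26ERT2-cre/+ B cells, which have the same tamoxifen-activated Cre recombinase and neither altered allele. All cells were stimulated with IL4 and LPS for 28 h and then kept with 2 µM 4-hydroxy tamoxifen (4-HT) for another 32 h, 60 h in all. Every WT library had therefore received the drug and the recombinase too, whereas the null copy was present only in the depleted cells from the start, and its effects and those of deleting the floxed copy cannot be told apart. Cre was expressed from Rosa26, a locus active in most cell types. The labels do not give the age of the mice, nor do they say that replicate libraries were made from different animals. The p-values thus reflect library-to-library spread alone, part of which may be technical. The labels differ on whether these B cells were mature or immature.

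The TCA cycle runs in the mitochondrial matrix. It joins acetyl groups to oxaloacetate to form citrate, oxidises citrate stepwise back to oxaloacetate, and passes the electrons on as NADH and reduced flavin to the respiratory chain. Its intermediates also leave the cycle for the synthesis of lipids, amino acids and nucleotides, which B cells need when LPS and cytokines drive them to divide. Its enzymes are encoded in the nucleus and imported into the organelle.

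Sequencing gave 17306549 to 21441575 counts in Spt5-depleted libraries and 23340978 to 25649611 counts in WT libraries. The targeted gene, listed as Supt5, averaged 11.1 ± 2.26 CPM in Spt5-depleted cells and 170.5 ± 18.7 CPM in WT cells (CPM, read counts scaled to library size with TMM factors; SD, n = 3 each; edgeR adjusted p = 1.26e-10). Xist, the RNA of the inactive X chromosome, lay at 1.00 to 1.73 CPM in Spt5-depleted libraries and at 468 to 915 CPM in WT libraries, and 4 Y-linked genes summed to 128 to 148 CPM and 0.0412 to 0.136 CPM in the same groups, so genotype and the presence of Xist or Y-linked RNA cannot be told apart. B cell markers were abundant, with 8 of 8 tested, a summed level of 13284 to 15492 CPM in Spt5-depleted and 13502 to 14345 CPM in WT libraries, and 3 of them lower, Cd22 and Blnk among these. Of 32 markers of other cell types 23 were tested. Beside the marker calls given here, 31.8% of all 12024 tested genes were called higher and 30.6% lower. The 8 macrophage and monocyte markers, of which 5 were higher and 0 lower, summed to 116 to 204 CPM in Spt5-depleted and 88.1 to 128 CPM in WT libraries. Among those 5, the groups overlapped for Csf1r, Adgre1 and Itgam. The 9 T cell markers summed to 22.4 to 45.7 CPM and 47.8 to 50.4 CPM in the same order of groups, with 1 lower. Of the dendritic list 3 of 7 markers were tested and 2 were higher, with a sum of 95.8 to 97.5 CPM in Spt5-depleted and 85.4 to 99.5 CPM in WT libraries. Most of that sum was Flt3, named after its values were seen and not called, at 82.1 CPM in Spt5-depleted and 86.7 CPM in WT cells. The 2 higher were Xcr1, at 5.98 and 0.881 CPM (log2 fold change 2.75), and Zbtb46, at 8.22 and 5.22 CPM (0.66), in the same order of groups. Of the NK and granulocyte list 3 of 8 were tested and 1 was lower, with sums of 5.64 to 12.4 CPM and 10.3 to 16.5 CPM in the same groups. The defining markers Siglech, Clec9a, Ncr1 and Ly6g have no row in the table used. The part of these cells in the results that follow was not tested. In bulk RNA, fewer cells of a type and less RNA per cell cannot be told apart.

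After depletion of Spt5, the mRNA of most TCA cycle enzymes stayed within a narrow range, and the exceptions were single enzymes or single subunits. Idh2, Fh1 and Idh3g fell, to 0.633, 0.707 and 0.751 of their WT levels, and Mdh2 rose 1.21-fold. The other 5 genes, Cs, Idh3a, Idh3b, Ogdh and Dlst, were not called, with log2 fold changes between -0.02 and 0.21. At an adjusted p under 0.05 in edgeR's quasi-likelihood test, 3 of the 9 genes were lower and 1 was higher. Across all 12024 tested genes, 62.4% were called, 30.6% lower and 31.8% higher, so the 44.4% called among the enzymes were no larger a share than among genes at large. The groups did not overlap for 5 of the 9 genes, 3 below and 2 above WT. Among all tested genes 67.5% did not overlap, 33.3% below and 34.2% above. None of the 9 changed 2-fold, whereas 17.5% of tested genes were called and changed at least that much. The median absolute log2 fold change was 0.21 for the 9 genes, 0.34 for the 4707 tested genes within their range of levels and 0.44 for all tested genes. Summed over the 9 genes, the level was 2317 to 2401 CPM in Spt5-depleted libraries and 2255 to 2465 CPM in WT libraries, and these ranges overlap.

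**Figure D1:**
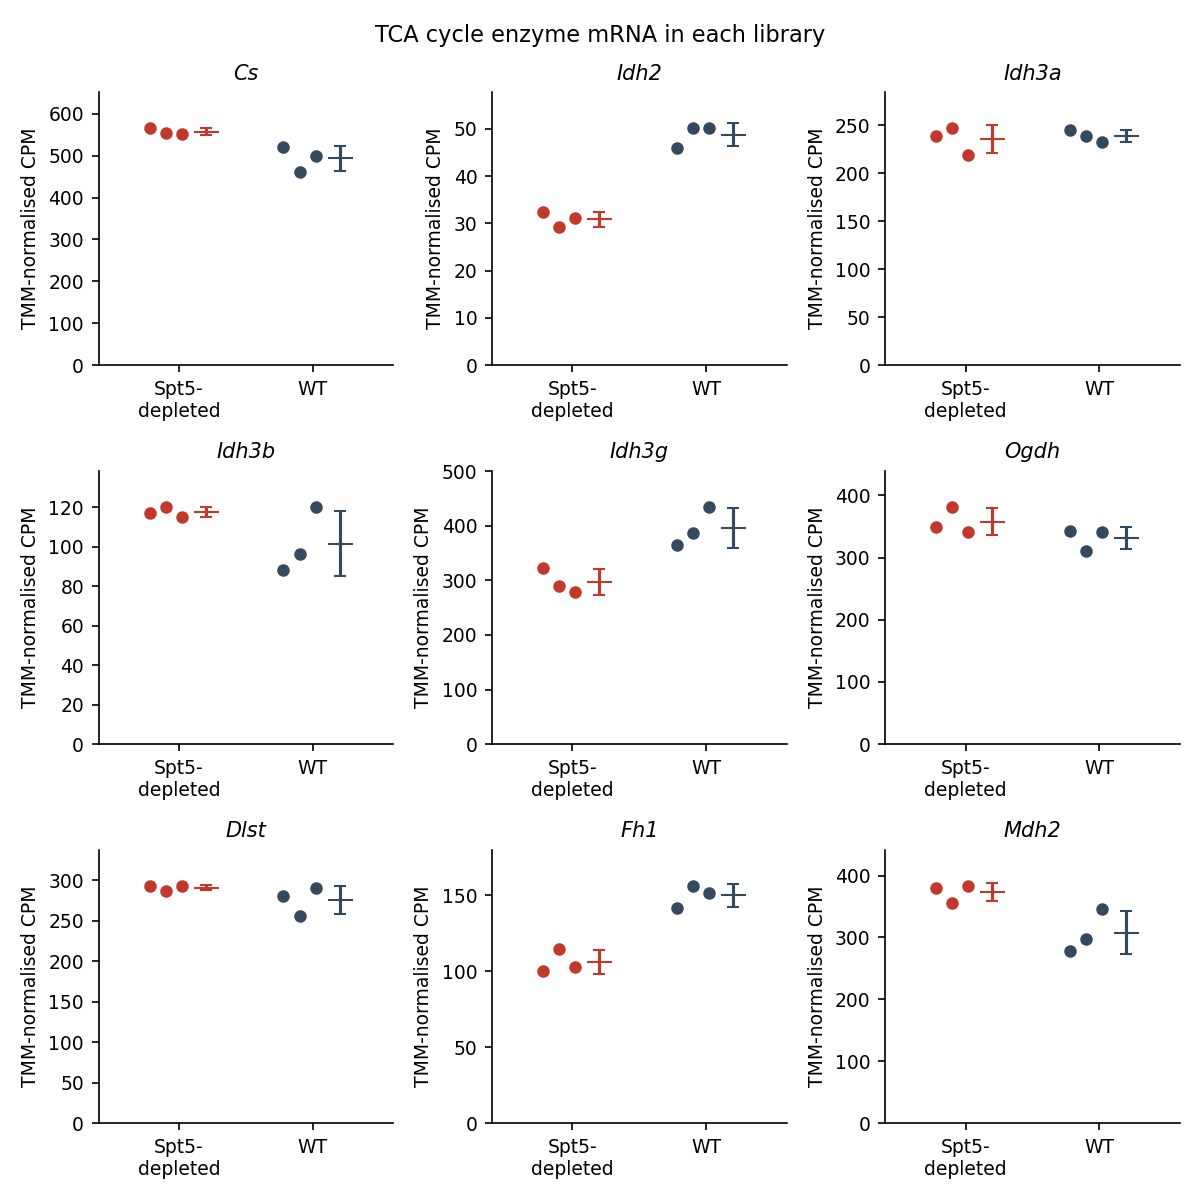
TMM-normalised read counts (CPM) of the 9 TCA cycle enzyme genes, 1 panel per gene. Each point is a library (3 Spt5-depleted in red, 3 WT in dark blue), and the bars beside them show the mean and SD. Idh2, Idh3g and Fh1 lie lower in every Spt5-depleted library than in any WT library, Cs and Mdh2 lie higher, and the groups of the other 4 genes overlap.

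Cs encodes citrate synthase, which condenses acetyl-CoA with oxaloacetate and brings carbon into the cycle. It had 567, 553 and 551 CPM in the Spt5-depleted libraries, against 520.1, 462 and 498 CPM in the WT libraries. Every depleted library was thus higher than every WT library, but by little. The log2 fold change was 0.17 ± 0.08 SE and did not pass (edgeR adjusted p = 0.0812), and its 95% interval reached from -0.003 to 0.35. Scaled by library totals alone, Cs was called higher, with a log2 fold change of 0.33 (edgeR adjusted p = 0.00246), the lowest p among its 14 alternatives, which reached 0.249.

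The next oxidation, of isocitrate to alpha-ketoglutarate, has parallel enzymes in the matrix. The NAD-dependent enzyme of the cycle proper is built from a catalytic subunit, encoded by Idh3a, and the subunits encoded by Idh3b and Idh3g, of which the Idh3g product takes part in allosteric regulation. Idh3a had 239, 247 and 219 CPM in Spt5-depleted libraries, against 244, 238 and 232 CPM in WT libraries. The groups overlap, and the log2 fold change of -0.02 ± 0.08 SE did not pass (edgeR adjusted p = 0.842; 95% interval -0.20 to 0.16). Idh3b had 117, 120.2 and 115 CPM in Spt5-depleted libraries, against 88.4, 96.3 and 119.8 CPM in WT libraries. WT replicate 3 lay at the level of the depleted libraries and the other WT libraries below them. The log2 fold change of 0.21 ± 0.10 SE did not pass (edgeR adjusted p = 0.0928). Idh3b was called higher under library totals (log2 fold change 0.37, adjusted p = 0.00678) and also when WT replicate 3 was left out (0.34, adjusted p = 0.00211), while the other 12 alternatives did not call it and the highest p was 0.334. The row name of Idh3b has an added tag, which may stand for a gene overlap. In RefSeq's GRCm38.p6 annotation it meets the end of Nop56, a nucleolar protein gene on the opposite strand, whose level was 124 ± 2.23 CPM in Spt5-depleted and 263 ± 33.6 CPM in WT cells (SD, n = 3 each; log2 fold change -1.08). Whether reads of Nop56 entered the Idh3b count was not tested.

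Idh3g was the subunit gene that fell. It had 324, 289 and 279 CPM in Spt5-depleted libraries, against 365, 388 and 435 CPM in WT libraries. The groups did not overlap, and the log2 fold change was -0.41 ± 0.09 SE (edgeR adjusted p = 0.00137). The call held in 14 of 14 alternatives, with log2 fold changes between -0.48 and -0.26. Idh3g lies on the X chromosome, and the libraries also differ in Xist. The 363 X-linked genes tested were lower in 32.2% of cases (median log2 fold change -0.03), against 30.8% of 10923 autosomal genes (median 0.003).

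In RefSeq's annotation, Idh3g stands head to head with Ssr4, which encodes a subunit of the translocon-associated complex of the endoplasmic reticulum. Ssr4 fell as well, with 341, 299 and 301 CPM in Spt5-depleted libraries, against 435, 508 and 393 CPM in WT libraries (log2 fold change -0.50 ± 0.10 SE, edgeR adjusted p = 0.000555). Ssr4 was among 5 protein-coding genes whose RefSeq position is within 1 kb of an enzyme gene without overlapping it, and their values were looked up after those of the enzymes were known. The others did not all move with their neighbour. Srpk3, also beside Idh3g, was scarce and lower, at 1.66 CPM in Spt5-depleted and 2.64 CPM in WT cells (log2 fold change -0.66, edgeR adjusted p = 0.0248). Acsbg1, beside Idh3a, was lower at 0.262 CPM in Spt5-depleted and 1.04 CPM in WT cells (log2 fold change -1.996, edgeR adjusted p = 0.000492), whereas Idh3a was not called. Coq10a beside Cs was not called (0.14), and Styxl1 beside Mdh2 was not tested. The 125 bases between the start sites of Idh3g and Ssr4 are shown first below, because they lie upstream of both genes. The 200 bases before the starts of Idh2, Fh1 and Mdh2 follow, as those of the other genes that were called. All are from RefSeq's GRCm38.p6 promoter table, written 5′ to 3′ on the strand of the TCA gene, and capitals mark matches on either strand to any of 5 motifs named after them.
Idh3g to Ssr4 (chrX:73786898-73787022, - strand): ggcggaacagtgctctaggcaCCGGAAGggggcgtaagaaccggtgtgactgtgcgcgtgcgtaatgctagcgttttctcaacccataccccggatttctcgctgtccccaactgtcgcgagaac
Idh2 (chr7:80115351-80115550, - strand): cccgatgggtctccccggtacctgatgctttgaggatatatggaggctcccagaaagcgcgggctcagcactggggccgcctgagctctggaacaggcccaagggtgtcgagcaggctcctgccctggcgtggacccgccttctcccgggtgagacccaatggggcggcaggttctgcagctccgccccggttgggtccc
Fh1 (chr1:175625636-175625835, - strand): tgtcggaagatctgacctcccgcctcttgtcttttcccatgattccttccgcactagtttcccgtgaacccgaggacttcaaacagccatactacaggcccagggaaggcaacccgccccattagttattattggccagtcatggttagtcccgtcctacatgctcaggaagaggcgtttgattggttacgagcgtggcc
Mdh2 (chr5:135778449-135778648, + strand): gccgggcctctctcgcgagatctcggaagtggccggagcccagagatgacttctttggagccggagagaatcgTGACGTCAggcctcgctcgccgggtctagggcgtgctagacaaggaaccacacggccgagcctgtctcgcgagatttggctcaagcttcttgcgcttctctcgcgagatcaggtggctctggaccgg

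The 5 motifs searched were CACGTG (E-box, read by MYC and related factors), TGACGTCA (cAMP response element), CCGGAAG (ETS family, which includes GABP), the NRF1 palindrome (GCGCA and GCGC, 1 base apart) and TCAAGGTCA (estrogen-related receptors), each on both strands in the 200 bases before a start. Of the 9 genes, all but Idh3a were matched to a promoter entry, 8 in all. The shares given here are per promoter entry of 200 bases, whereas a gene was counted if any of its entries held the motif. The stretch between Idh3g and Ssr4, at 125 bases shorter than these windows, held the ETS motif, which 6.29% of 32851 promoter entries hold. The Mdh2 stretch held the cAMP response element, which 1.47% hold, and so did an entry of Ogdh. An E-box, found in 5.26% of entries, was present for Ogdh alone among the 8 genes. The NRF1 motif (3.49% of entries) and the estrogen-related receptor motif (0.277%) were found in 0 of the 8. The stretches of Idh2 and Fh1 held 0 of the 5 motifs. A match describes letters in a window and is no measure of binding.

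Idh2 encodes the NADP-dependent isocitrate dehydrogenase of the matrix, which yields NADPH and can run in reverse. Its read counts were 579, 623 and 722 in Spt5-depleted libraries, against 1090, 1106 and 1221 in WT libraries. After scaling it had 32.3, 29.2 and 31.2 CPM in Spt5-depleted libraries, against 45.9, 50.3 and 50.3 CPM in WT libraries. The groups lay far apart relative to their spread. This was the largest change among the 9 genes, with a log2 fold change of -0.66 ± 0.09 SE (edgeR adjusted p = 2.08e-05), and it was called in 14 of 14 alternatives, between -0.71 and -0.50. Idh1, its cytosolic and peroxisomal counterpart, went the other way, with 21.6 ± 0.911 CPM in Spt5-depleted and 15.8 ± 1.13 CPM in WT cells (SD, n = 3 each), and its log2 fold change was 0.45 ± 0.10 SE (edgeR adjusted p = 0.00164).

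Ogdh and Dlst encode the catalytic and the lipoyl-bearing core subunits of the alpha-ketoglutarate dehydrogenase complex, which makes succinyl-CoA. Ogdh had 349, 382 and 342 CPM in Spt5-depleted libraries, against 343, 310.4 and 341 CPM in WT libraries. Dlst had 293, 287 and 293 CPM in Spt5-depleted libraries, against 280.1, 256 and 289.9 CPM in WT libraries. Both pairs of groups overlap. The log2 fold change was 0.11 ± 0.09 SE for Ogdh (edgeR adjusted p = 0.281; 95% interval -0.07 to 0.29). For Dlst it was 0.08 ± 0.08 SE (edgeR adjusted p = 0.418; 95% interval -0.10 to 0.26). With library totals alone both were called higher, at 0.27 and 0.24 (adjusted p = 0.0128 and 0.0213), and in none of their other 13 alternatives, where p reached 0.647 for Ogdh and 0.825 for Dlst. Prox2, a gene on the opposite strand that overlaps the start of Dlst in RefSeq's annotation, had 8.61 ± 0.750 CPM in Spt5-depleted and 19.0 ± 1.54 CPM in WT cells (SD, n = 3 each). Dld encodes the flavoprotein that the complex shares with pyruvate dehydrogenase. It fell, with 96.8 ± 7.57 CPM in Spt5-depleted and 119.9 ± 1.27 CPM in WT cells (SD, n = 3 each). Its log2 fold change was -0.31 ± 0.09 SE (edgeR adjusted p = 0.00594), and the call was lost with library totals alone (-0.15, adjusted p = 0.131).

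Fh1 encodes fumarase, which hydrates fumarate to malate in the matrix and, in a second pool, in the cytosol. It fell, with 100.4, 115 and 103 CPM in Spt5-depleted libraries, against 142, 156 and 152 CPM in WT libraries. Every depleted library was lower than every WT library. The log2 fold change was -0.50 ± 0.09 SE (edgeR adjusted p = 0.000165), and it was called in 14 of 14 alternatives, between -0.56 and -0.34. Mdh2, the matrix malate dehydrogenase that regenerates oxaloacetate, acts directly after fumarase and rose. It had 379.8, 356 and 384 CPM in Spt5-depleted libraries, against 278, 298 and 346 CPM in WT libraries. The highest WT library, replicate 3, came close to the lowest depleted one. The log2 fold change was 0.28 ± 0.09 SE (edgeR adjusted p = 0.0169). This call was lost when WT replicate 1, WT replicate 2, Spt5-depleted replicate 1 or Spt5-depleted replicate 3 was left out, with adjusted p = 0.0689, 0.0523, 0.0525 and 0.0509. It was also lost at an adjusted p under 0.01. The direction was the same in all 14 alternatives, with log2 fold changes of 0.21 to 0.44 and adjusted p of 0.000818 to 0.0689. Mdh1, the cytosolic counterpart in the malate-aspartate shuttle, fell, with 285 ± 21.8 CPM in Spt5-depleted and 373 ± 26.2 CPM in WT cells (SD, n = 3 each), a log2 fold change of -0.39 ± 0.09 SE (edgeR adjusted p = 0.00169).

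**Figure D2:**
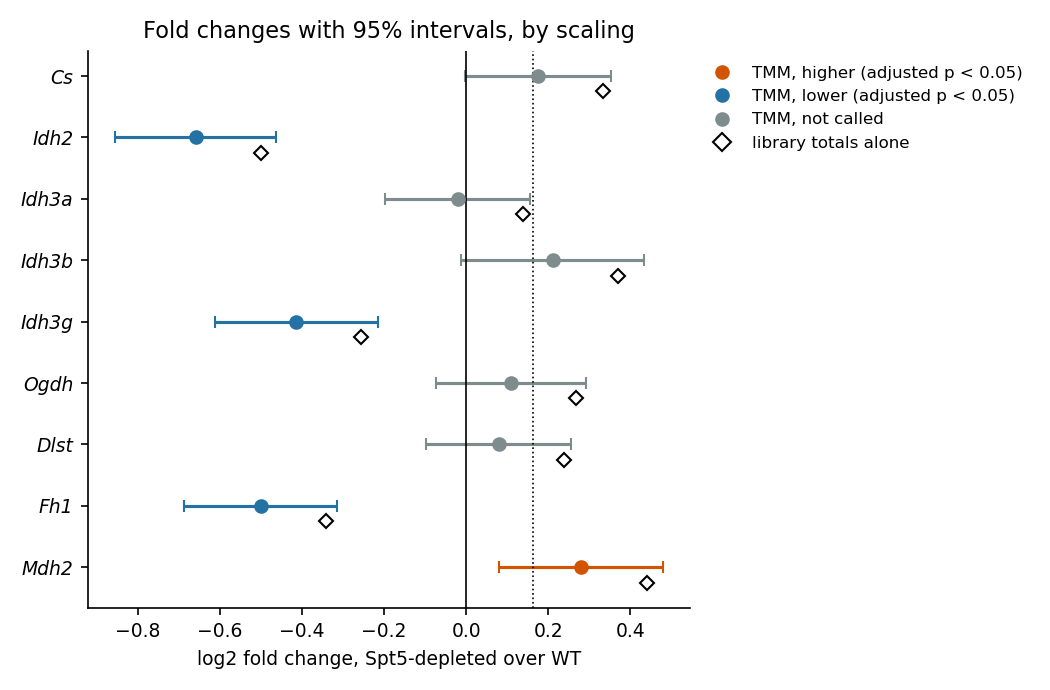
Log2 fold change (Spt5-depleted over WT) of the 9 genes. Circles and bars give the edgeR estimate after TMM scaling with its 95% interval, coloured by call. Open diamonds give the estimate with library totals alone, and the dotted line marks the median of all genes under that scaling, 0.16. Diamonds sit to the right of the circles by about that amount; 3 genes are lower under both scalings, and Idh3a changes sign (-0.02 and 0.14).

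The choice of scaling bears on genes that move this little. With library totals alone the median log2 fold change of all tested genes was 0.16, against 0.005 after TMM, and 64.8% of all calls were higher, against 50.9%. Under that scaling 5 of the 9 enzymes were called higher (Cs, Idh3b, Ogdh, Dlst and Mdh2) and the same 3 lower, and the median of the 9 was 0.24, against 0.08 after TMM. Of all 12024 tested genes, 63.7% were called with library totals alone, 4962 higher and 2694 lower. Counts under library totals in the lists below have the same background. The 9 genes together took 0.248 to 0.251% of all counts in Spt5-depleted libraries and 0.213 to 0.233% in WT libraries, which do not overlap, whereas their summed CPM after TMM did. No spike-in counts were used here, so amounts per cell are not known. The authors' deposited table gives an adjusted p under 0.05 for 4 of the 9 genes, Idh2, Idh3g, Fh1 and Mdh2, in the same directions as here.

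Ratios of counts within a library do not depend on scaling. Of 10 such ratios, 4 were higher in every Spt5-depleted library, 3 were lower in every one, and 3 overlapped between the groups. How often ratios of other gene pairs do not overlap was not computed. Among single tested genes the share was 67.5%. Each ratio whose groups were apart includes a gene called by itself, so these ratios are no separate evidence of a change. With 3 libraries against 3, the smallest p an exact permutation test can give is 0.10, so each ratio whose groups did not overlap had a two-sided exact p = 0.10, or 0.143 after Benjamini-Hochberg adjustment over the 10. Within the NAD-dependent isocitrate dehydrogenase, Idh3b stood at 0.362, 0.416 and 0.412 counts per Idh3g count in Spt5-depleted libraries, against 0.242, 0.248 and 0.275 in WT libraries. Idh3a stood at 0.738, 0.856 and 0.785 counts per Idh3g count in Spt5-depleted libraries, against 0.670, 0.615 and 0.534 in WT libraries. Both ratios were thus higher after depletion in each library. Idh3a over Idh3b was 2.04, 2.06 and 1.90 in Spt5-depleted libraries, against 2.77, 2.48 and 1.94 in WT libraries, and overlapped (exact permutation p = 0.30).

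The ratio of Ogdh to Dlst was 1.23 ± 0.0889 in Spt5-depleted and 1.21 ± 0.0244 in WT libraries (SD, n = 3 each; exact permutation p = 0.90), while that of Ogdh to Dld was 3.70 ± 0.257 and 2.77 ± 0.181 in the same groups and did not overlap. The ratio of Fh1 to the next enzyme, Mdh2, was 0.264, 0.322 and 0.268 in Spt5-depleted libraries, against 0.509, 0.525 and 0.439 in WT libraries. Cs over Mdh2 was 1.49 ± 0.0585 in Spt5-depleted and 1.62 ± 0.223 in WT libraries and overlapped (SD, n = 3 each; exact permutation p = 0.50). The NADP-dependent Idh2 stood at 0.135, 0.118 and 0.143 counts per Idh3a count in Spt5-depleted libraries, against 0.188, 0.211 and 0.216 in WT libraries. The 2 ratios of matrix to cytosolic enzymes moved in opposite directions. Idh2 over Idh1 was 1.53, 1.29 and 1.49 in Spt5-depleted libraries, against 2.92, 2.96 and 3.41 in WT libraries. Mdh2 over Mdh1 was 1.26, 1.21 and 1.48 in Spt5-depleted libraries, against 0.808, 0.788 and 0.873 in WT libraries. These 2 ratios and Fh1 over Mdh2 had the largest differences of the 10, at -1.11, 0.67 and -0.79 on the log2 scale.

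**Figure D3:**
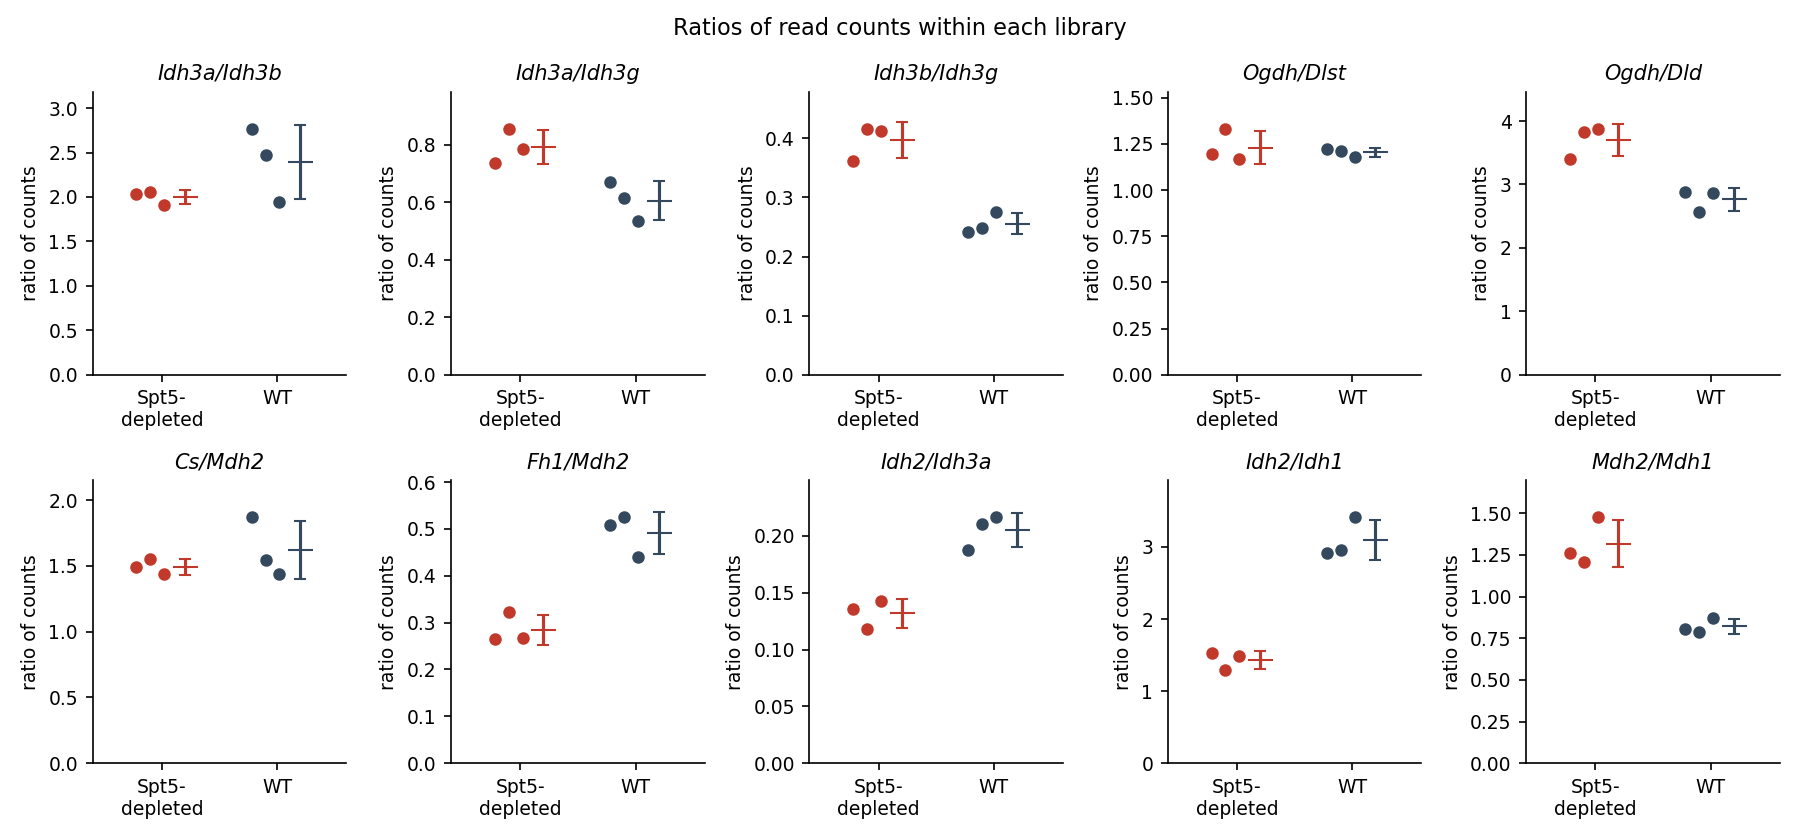
Ratios of raw read counts between 2 genes of the same library, 1 panel per ratio, with axes from 0. Each point is a library (3 Spt5-depleted in red, 3 WT in dark blue), and the bars show mean and SD. The groups are apart in 7 panels; they overlap for Idh3a/Idh3b, Ogdh/Dlst and Cs/Mdh2. Counts are not corrected for gene length, so only differences between groups within a panel can be read.

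The remaining genes of the cycle went both ways. Of 11 in the list, which includes the succinyl-CoA synthetase subunits, succinate dehydrogenase with its assembly factors, and Dld, 5 were higher and 2 lower, with a median log2 fold change of 0.13, against 0.005 for all tested genes. Scaling by library totals gave 8 higher and 1 lower, and DESeq2 size factors gave 4 and 2. Suclg1, the subunit common to both forms of succinyl-CoA synthetase, fell, with 131 ± 10.3 CPM in Spt5-depleted and 208 ± 10.0 CPM in WT cells (SD, n = 3 each; log2 fold change -0.66, edgeR adjusted p = 1.33e-05). Suclg2, the GTP-forming partner, named after its values were seen, stood at 0.23 (adjusted p = 0.0496). In succinate dehydrogenase the membrane anchor Sdhd rose (log2 fold change 0.50, edgeR adjusted p = 0.000201). Sdhc, the other anchor, named after its values were seen, rose too (0.44, edgeR adjusted p = 0.000256). The assembly factors Sdhaf1 (1.00, adjusted p = 1.41e-06) and Sdhaf2 (0.48, adjusted p = 0.000188) were also higher. Sdhaf1 had 35.9 ± 2.04 CPM in Spt5-depleted and 17.9 ± 1.96 CPM in WT cells (SD, n = 3 each). The catalytic subunits Sdha and Sdhb, also named after their values were seen, had 0.07 and -0.11 and were not called.

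Around the cycle, 7 lists held 90 genes, of which 88 were tested, 18 were higher and 37 lower, against 31.8% higher and 30.6% lower of all tested genes. These counts depend on the scaling, as do those of all tested genes. Library totals alone gave 27 higher and 28 lower of the 88. Under that scaling 4962 of all 12024 tested genes were higher and 2694 lower, against 3823 and 3681 after TMM. Genes of pyruvate entry gave 4 higher and 3 lower of 13 (median log2 fold change 0.11), and 6 and 2 when scaled by library totals (median 0.27). Pdk1, a kinase that switches pyruvate dehydrogenase off, fell to 24.96 ± 3.79 CPM in Spt5-depleted cells, against 81.6 ± 3.30 CPM in WT cells (SD, n = 3 each; log2 fold change -1.71, edgeR adjusted p = 8.20e-09). Pdha1, the X-linked catalytic subunit of pyruvate dehydrogenase, fell (-0.48, adjusted p = 0.000259), and Mpc2 of the mitochondrial pyruvate carrier and the phosphatase Pdp2 rose (0.36 and 0.40). Pdk3 (-0.21) and Pdpr (0.53) passed the main test, but Pdk3 was lost with library totals alone (adjusted p = 0.596), under a replicate block (adjusted p = 0.0687) and in 3 of 6 fits without a library, and Pdpr in 5 of 6. Those libraries were WT replicate 2 and Spt5-depleted replicates 1 and 3 for Pdk3, with adjusted p of 0.0821 to 0.173, and each library except WT replicate 1 for Pdpr, with adjusted p of 0.0571 to 0.0749. The rows of Pdha1, Pdpr and Nfs1 have the overlap tag.

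Enzymes that bring glutamine, malate and aspartate in and out gave 1 higher and 6 lower of 12, with a median log2 fold change of -0.40; with library totals alone they gave 3 and 5. The mitochondrial alanine aminotransferase Gpt2, which makes alpha-ketoglutarate from glutamate, fell furthest. It averaged 2.999 ± 0.380 CPM in Spt5-depleted and 34.1 ± 3.04 CPM in WT cells (SD, n = 3 each; log2 fold change -3.50, edgeR adjusted p = 7.58e-11). It was followed by the mitochondrial phosphoenolpyruvate carboxykinase Pck2 (-1.84), with Got1, the cytosolic aspartate aminotransferase, at -0.90. Cytosolic counterparts and carriers gave 2 higher and 7 lower of 11 (median -0.27; 3 and 5 with library totals alone). Slc25a11, the carrier that exchanges malate for alpha-ketoglutarate, rose (0.75). The aspartate-glutamate carriers Slc25a12 and Slc25a13 fell (-0.61 and -0.90).

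The list of lipoic acid and iron-sulfur supply, which serves Dlst and succinate dehydrogenase among others, was split, with 3 higher and 4 lower of 13 (median log2 fold change -0.05, and 0.11 with library totals alone, which gave 4 and 3). The scaffold protein gene Iscu rose, with 193 ± 15.4 CPM in Spt5-depleted and 90.6 ± 7.92 CPM in WT cells (SD, n = 3 each; log2 fold change 1.09, edgeR adjusted p = 2.07e-07), as did the cysteine desulfurase Nfs1 (0.71) and Isca2 (0.47). Iba57 fell (-0.79), and so did Lipt2, which starts lipoylation (-1.01). Mitochondrial import, channel and chaperone genes were lower in 11 of 16 and higher in 1 (median -0.43; 9 and 1 with library totals alone), with Hspa9, the matrix chaperone, at -0.79, the channel Vdac3 at -0.81 and the protease subunit Clpp at -0.72 against Tomm22 at 0.62. Of 12 regulators 2 were higher and 4 lower (median -0.16; 2 and 3 with library totals alone). Myc rose (0.38, edgeR adjusted p = 0.0014), Nrf1 and Gabpb1, which act on nuclear genes for mitochondrial proteins, fell (-0.70 and -0.74), and so did the coactivator Ppargc1b (-1.06). Its relative Ppargc1a rose but was scarce, at 0.882 ± 0.204 CPM in Spt5-depleted and 0.339 ± 0.162 CPM in WT cells (SD, n = 3 each), and its call was lost without WT replicate 2 (adjusted p = 0.0516). Whether reads from pseudogenes or close paralogs entered any of these counts was not tested.

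**Figure D4:**
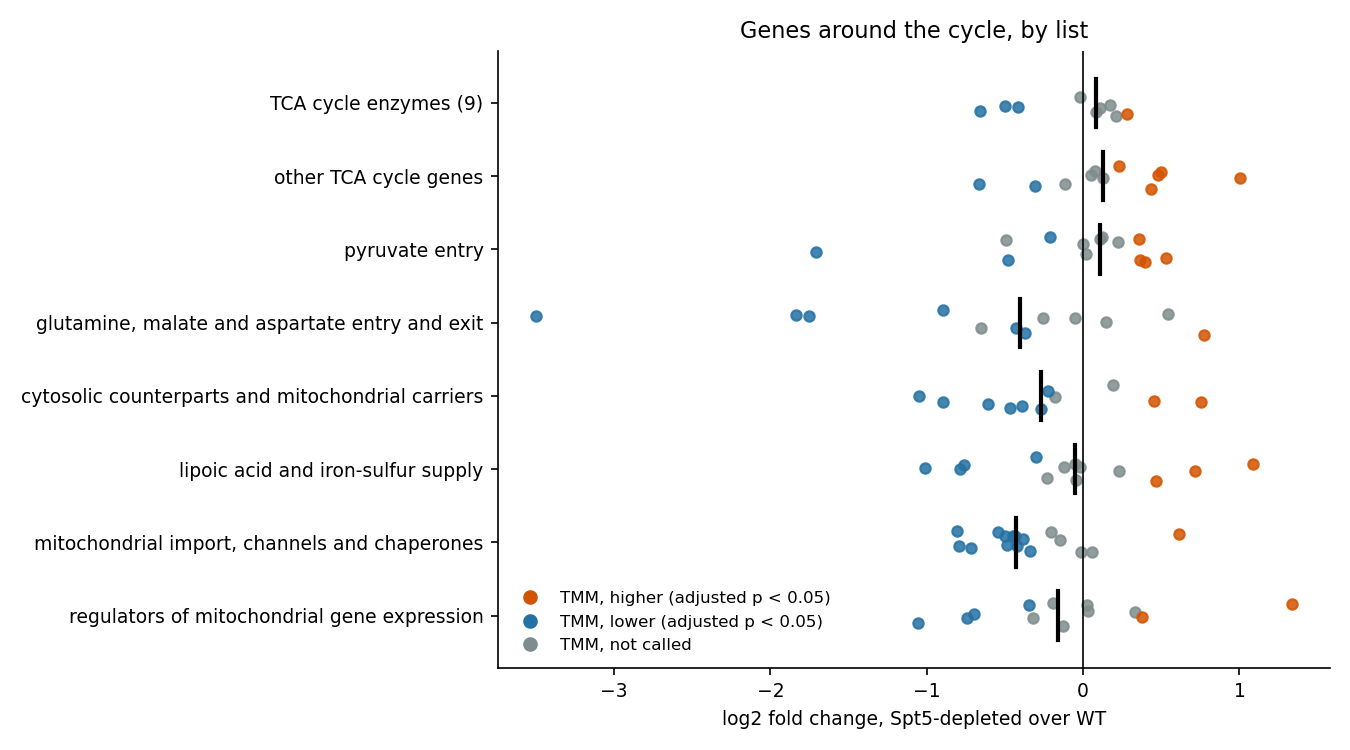
Log2 fold change (Spt5-depleted over WT, TMM scaling) of the 9 TCA cycle enzymes and of the genes in 7 lists around the cycle. Each point is a gene, coloured by its edgeR call, with vertical scatter only to separate points, and black bars are list medians. The 9 enzymes span -0.66 to 0.28, while the lowest point among genes of glutamine, malate and aspartate entry and exit is Gpt2 at -3.50.

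The 9 enzymes are genes of middle to high level, averaging 39.9 to 525 CPM over both groups, with 579 to 12726 counts in each library. The standard errors of their log2 fold changes were 0.08 to 0.10, and these include the spread between libraries. In that range of levels 4707 tested genes had a median log2 fold change of -0.03, the middle 50% of them lay between -0.38 and 0.30, and 65.0% were called. Of the 9 enzymes 6 lay inside that middle range, and Idh2, Fh1 and Idh3g lay below it.

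**Figure D5:**
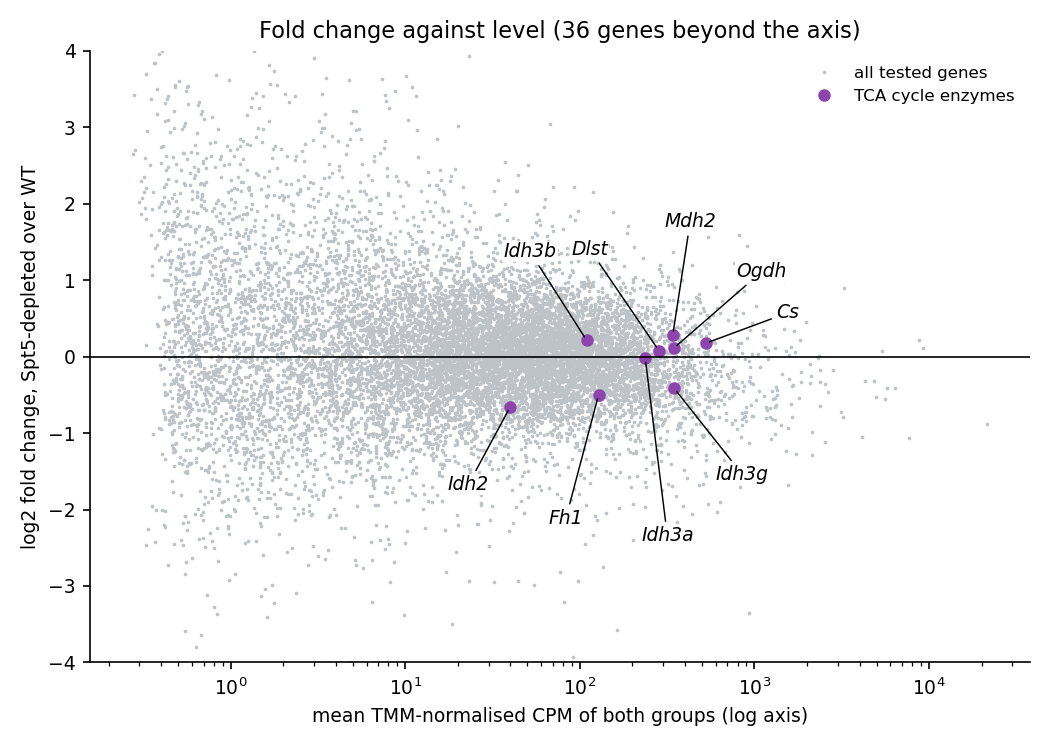
Log2 fold change (Spt5-depleted over WT, TMM scaling) against the mean level of both groups in CPM on a log axis. Grey points are the 12024 tested genes, with 36 beyond the plotted range, and purple points are the 9 TCA cycle enzymes. All 9 lie within 1 log2 unit of 0, where 6 of them sit between -0.02 and 0.28.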

How the data were processed

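The deposited table gives raw, whole-number read counts for each gene in 6 libraries. Next to them stand the log2 fold changes and adjusted p-values that the authors computed, which appear in the text just where their table is credited. Per the labels' protocols, RNA was extracted with Trizol and poly(A) libraries were made with a Lexogen SENSE kit. Per the submitters' processing notes, the tools named are TopHat, featureCounts 1.5.0-p1, Bowtie2 2.1.0, cutadapt 1.10 and DESeq2 1.10.1, with mm9 as the genome build. What each did is not given in the sources used here, nor is the annotation, whether strand was used, or how reads with several matches were counted. Every gene in the table has at least 10 counts in all, and 2005 names carry a suffix that may mark overlap. KO columns were taken as the Spt5-depleted libraries of the same number.

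Counts were filtered with filterByExpr, scaled by TMM (whose premise is that the bulk of genes is stable) and tested in R 4.3.3 with edgeR 4.0.16 (quasi-likelihood F test, robust, two-sided). P-values were adjusted over all 12024 genes by the Benjamini-Hochberg method at 0.05. Standard errors come from the F statistic. Libraries within each group were more different than counting noise alone gives. Chi-square per degree of freedom was 6.13 to 10.2 between Spt5-depleted libraries and 26.4 to 31.2 between WT libraries. The fit takes 1 dispersion per gene for both groups. Ratios were tested with exact permutation tests (scipy 1.17.1). Alternatives used other scalings, filters, DESeq2 1.42.0, limma 3.58.1, a replicate block, a threshold of 0.01 and leaving out each library.

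The 9 genes and the lists were chosen with earlier results of these data known. Named genes are the 9, Supt5, genes in a ratio, Idh1, Mdh1, Myc and, of each further list, at most 3 called genes per direction with the smallest p; some genes that this rule takes are not reported here. Neighbours, promoters and motifs were added after the values were seen, and use RefSeq of GRCm38.p6, from which no gene positions are given in the build of the files. Gene lengths of the authors' build were not at hand, so CPM values are not corrected for length. Where levels of different genes are set side by side, they are read levels and not transcript numbers.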

Additional observations from a re-analysis of the deposited data

How the results depend on the processing

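Under 15 alternatives of scaling, filter, test, block, threshold and left-out libraries, Idh2, Idh3g and Fh1 were called lower in each, and the count of called genes overall lay between 5959 and 7914, against 7504. The number of enzyme genes called higher was 1 and became 5 with library totals alone, 0 at an adjusted p under 0.01, and 0 to 2 when a library was left out. With library totals alone, 4962 of all 12024 tested genes were called higher, against 3823 after TMM. Idh3a reversed its direction with library totals alone (log2 fold change 0.14) and when Spt5-depleted replicate 3 was left out. Leaving out a library gave it log2 fold changes of -0.0590 to 0.0329, and it was called in 0 of 14 alternative fits. The log2 difference of Ogdh/Dlst, 0.0274, lay between -0.0310 and 0.0650 when a library was left out, and turned without Spt5-depleted replicate 2. The cause was not tested, except that library totals shift all genes alike by construction and a stricter threshold calls fewer. With the replicate number as a block, 1 enzyme gene was higher and 3 lower and 7369 genes were called in all. Same-numbered libraries did not deviate together (correlations 0.04, -0.04 and -0.01). Correlations over 3 libraries a group cannot decide whether same-numbered libraries were prepared together. The exact paired test of the ratios cannot go below p = 0.25. Of 47 other named genes 4 changed their call under some alternative, and 0 reversed. The 95% intervals of the 5 enzyme genes not called reached as low as -0.20 and as high as 0.43 on the log2 scale. For each of these genes, a change of any size within its own interval is compatible with the data.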
